A study of Mus musculus with 8 samples.

Results

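Autophagy machinery genes were examined in multipotent progenitors of mice with and without a functional Slfn2 gene. The members were chosen by symbol from the deposited annotated array table: the Atg genes, Ulk1 to Ulk4, the Map1lc3 and Gabarap genes, and the named partners, cargo receptors, lysosomal membrane genes and Tfeb that work with them. The rule matched 42 probe sets of 41 genes, out of 30918 genes in all, and used no measured difference between genotypes. The gene Atg4c had 2 probe sets and was read from the brighter one. The 4 Elektra samples came from untreated mice homozygous for the elektra allele of Slfn2 (elektra/elektra) on a C57Bl/6 background, and the 4 wild-type samples from littermates homozygous for the wild-type allele (wt/wt). Elektra is described as a loss-of-function mutation carried by every cell of the mouse, so the progenitors developed in a marrow whose other cells lack Slfn2 function too. Progenitors were gated as LSK (lineage-negative, Sca-1+, c-Kit+) CD48- CD150- cells from c-Kit-enriched marrow of femur, tibia and iliac bone. The labels say that each sample joined the bones of 2 mice sharing a genotype, but the series description counts 4 mice for either genotype, so the number of animals is not settled here. Age and sex are not given in the sources used here.

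Macroautophagy encloses cytoplasm, aggregates or organelles in a double membrane, the autophagosome, and delivers them to lysosomes for breakdown. A ULK kinase complex starts the process and is held back by mTORC1 in fed cells, a class III PI3-kinase marks the site of membrane growth with its lipid product, ATG9 and ATG2 supply lipid, and a pair of ubiquitin-like conjugation systems attach ATG8 proteins (LC3 and GABARAP) to the growing membrane. In mice, haematopoietic stem cells are known to depend on autophagy genes such as Atg7, Atg5 and Rb1cc1, and the transcription factor FOXO3 is known to maintain a programme of autophagy genes in them. Much of the pathway is controlled by phosphorylation and by turnover of its own proteins, neither of which an RNA array measures.

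Values are log2 intensities normalised by the authors, with 1 array per sample, and differences are Elektra minus wild type on that log2 scale. The number of arrays limits the precision, and no detection call came with the values, so a dim probe set cannot be called absent. Slfn2 itself lay between 1.99 and 2.18 in Elektra and between 1.68 and 2.44 in wild type, a dim signal that does not check the genotype, since elektra is known as a change in the protein sequence. The genes of the gate's positive markers were bright in all 8 arrays: Kit lay between 8.80 and 9.12 in Elektra and between 9.04 and 9.23 in wild type. Ly6a, the gene of Sca-1, lay between 9.07 and 9.45 in Elektra and between 8.63 and 9.44 in wild type. Slamf1, the gene of CD150, lay between 1.30 and 2.11 in Elektra and between 1.29 and 2.11 in wild type. Cd48, whose product was gated out too, lay well above that, between 3.88 and 4.23 in Elektra and between 3.52 and 4.21 in wild type. Flt3 is a receptor gene whose product the gate did not use and which differs between kinds of multipotent progenitor. It lay between 6.94 and 7.31 in Elektra, against 7.36 to 7.49 in wild type, without overlap, as for 3.23% of all genes. Its log2 change was -0.34 (SE 0.10), with a limma unadjusted p of 0.00904 and an adjusted p of 0.884, and its part in the members' values was not tested. Elektra replicate 2 stood apart, with an upper quartile of 3.62, where the others had 3.80 to 3.83, and a first principal component of -62.0 against 2.72 to 16.6. Of the members, 40 lay above the median level of all genes, Atg9b being the exception.

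No autophagy gene passed the test between Elektra and wild type. In limma, with Benjamini-Hochberg adjustment over all 30918 genes, 0 of the 41 members passed an adjusted p of 0.05, and 0% of all genes did. The lowest adjusted p was 0.884 both among the members and among all genes. At an unadjusted p under 0.05 there was 1 of 41 members, Pik3c3, against 5.5% of all genes and 1134 of the 15459 genes above the median level. A pooled-variance test per gene gave 2 of 41 members, Pik3c3 and Atg4a, against 5.08% of all genes, with 0 after adjustment. The log2 change was negative for 22 members (53.7%) and positive for 19. It was negative for 46.1% of all genes and 54.3% of genes above the median level. The members' median was -0.02, where the median over all genes was 0.01 and that over genes above the median level was -0.02. In a bulk sample a lower signal from fewer cells of a type and one from less RNA per cell cannot be told apart.

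The arrays bounded the size of any change fairly closely for most members. The log2 change had a 95% interval inside -0.5 to 0.5, a fold of 1.41 either way, for 29 of 41 members, against 71% of all genes and 57.8% of genes above the median level. It lay inside -1 to 1 for 39 members. The exceptions were Atg14 (-1.15 to 0.12) and Atg10 (-1.06 to 0.49). For 30 members the difference between genotypes was smaller than the SD within them, which had a median of 0.22 over the members. Simulated data of the same size had 200 genes changed in each of 10 runs. Those genes were drawn from above the median level and shared log2 changes of 0.5, 1, 1.5 and 2. Calls were made for 65% of the genes given 1 and for 16% of those given 0.5, so a change of a size within these intervals could go uncalled. These rates hold for that mixture only, and with fewer or smaller changes among the genes they would be lower. The simulated noise was drawn separately for each gene and array. The rates therefore do not cover a shift of a whole array like that of Elektra replicate 2.

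**Figure D1:**
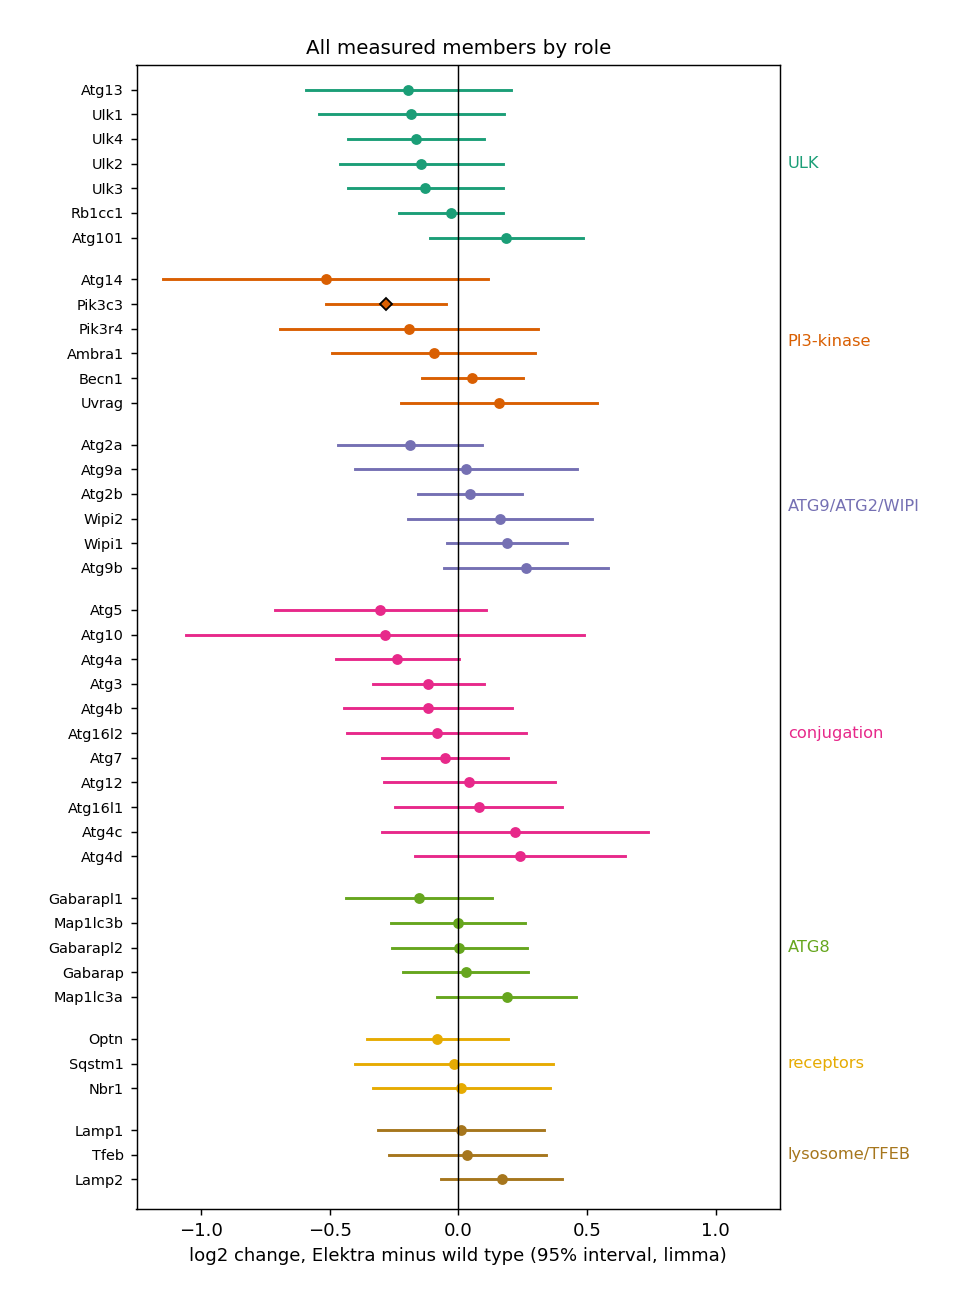
Log2 change (Elektra minus wild type, horizontal axis) of each of the 41 members, grouped by role, with the 95% interval from limma as a line. The diamond marks Pik3c3, the member whose 4 Elektra and 4 wild-type values did not overlap; the interval of every other member crosses 0.

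The class III PI3-kinase complexes held the member with the most negative value, Atg14, and 4 of their 6 genes had negative log2 changes (median -0.14). That median rested on single arrays, at -0.26 when wild type replicate 1 was dropped, -0.0227 when wild type replicate 3 was, and -0.0010 when Elektra replicate 2 was. Pik3c3 encodes the catalytic subunit VPS34, which makes the lipid that recruits later autophagy proteins. It measured 6.18, 5.98, 6.23 and 6.31 in Elektra replicates 1 to 4, against 6.33, 6.52, 6.41 and 6.57 in wild type. All 4 Elektra values lay below all 4 wild-type values, by a gap of 0.02 between the nearest arrays. The log2 change was -0.28 (SE 0.10), a fold of 0.823, with a limma unadjusted p of 0.0231 and an adjusted p of 0.884 over all genes. Groups without overlap occurred for 1 of 41 members in either direction, against 3.23% of all genes, and in the direction of Pik3c3 for 1.37% of all genes. The separation therefore occurred at about the rate of the whole array. Without Elektra replicate 2, the lowest array for this gene and the one that stands apart, the change was -0.22 (limma adjusted p = 0.936). With Elektra replicate 3 and wild type replicate 4 left out as well it was -0.17 (limma adjusted p = 0.969). Leaving out Elektra replicate 4 alone gave -0.33 (limma adjusted p = 0.855).

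Atg14, which encodes the subunit that directs VPS34 to autophagosome formation, measured 3.99, 3.19, 3.01 and 3.82 in Elektra and 4.59, 4.24, 3.83 and 3.40 in wild type. Its arrays were widely scattered in both genotypes (SD 0.48 and 0.51) and overlapped, wild type replicate 4 being below Elektra replicates 1 and 4. The log2 change of -0.51 (SE 0.28) was the most negative of the 41 and had a limma adjusted p of 0.885. It lay at -0.72 without wild type replicate 4 and at -0.32 without wild type replicate 1. Becn1, the scaffold of both VPS34 complexes and a binding partner of BCL2, was the most even member of all, at 3.80 ± 0.03 in Elektra against 3.75 ± 0.09 in wild type (SD, n = 4 each). Uvrag, the subunit of the endosomal complex that competes with ATG14, was 5.78 ± 0.24 and 5.62 ± 0.31, and the regulatory subunit gene Pik3r4 was 4.04 ± 0.46 and 4.23 ± 0.30. The BECN1 regulator Ambra1 was 5.73 ± 0.21 in Elektra against 5.83 ± 0.35 in wild type.

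Of the 7 genes of the ULK kinases and the initiation complex, 6 had negative log2 changes, with a median of -0.14 and 0 past the threshold. All 7 changes were under 0.20 in size. The median was -0.0696 without wild type replicate 1, -0.0757 without wild type replicate 3, and -0.0430 with Elektra replicates 2 and 3 and wild type replicate 4 left out. Ulk1, the kinase that mTORC1 and AMPK control in opposite ways, measured 6.19, 5.63, 5.57 and 5.74 in Elektra and 6.30, 5.83, 5.89 and 5.84 in wild type. In both genotypes replicate 1 was the highest array, and the other 3 Elektra arrays lay below the wild-type range. The log2 change was -0.18 (SE 0.16, limma adjusted p = 0.901), and it lay at -0.32 without Elektra replicate 1 and at -0.07 without wild type replicate 1.

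The complex's small subunit gene Atg101 went the other way in value, at 5.79, 5.75, 5.94 and 6.11 in Elektra and 5.48, 5.99, 5.59 and 5.77 in wild type, with overlap. Its log2 change was 0.19 (SE 0.13, limma adjusted p = 0.892), or 0.11 without wild type replicate 1. Rb1cc1, which encodes the scaffold FIP200, was nearly level at 4.94 ± 0.05 and 4.96 ± 0.10. Atg13, the adaptor phosphorylated by mTORC1, had a log2 change of -0.19 (SE 0.18), which lay at -0.32 without Elektra replicate 4 and at -0.06 without wild type replicate 3. Ulk2, the close relative of Ulk1, was 5.09 ± 0.22 and 5.23 ± 0.21. The more distant kinase relatives were dimmer than Ulk1 and Ulk2, though above the median level of all genes. Ulk4 measured 2.18, 2.01, 2.26 and 2.26 in Elektra and 2.15, 2.35, 2.61 and 2.26 in wild type, and Ulk3 was 3.69 ± 0.25 and 3.82 ± 0.13.

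The members for the lipid supply of the growing membrane had mostly positive values, 5 of 6 with a median of 0.10, and 0 passed. Leaving out Elektra replicate 1 brought the median to 0.06, leaving out wild type replicate 1 to 0.16, and it was 0.22 with Elektra replicates 2 and 3 and wild type replicate 4 left out. The other WIPI family genes, Wdr45 and Wdr45b, lie outside the symbol rule and had negative log2 changes (-0.21 and -0.15). Vmp1 and Tmem41b, also outside the rule, were negative too (-0.07 and -0.02). Wipi1, which encodes a reader of the VPS34 lipid, measured 2.87, 2.78, 2.82 and 2.67 in Elektra and 2.75, 2.59, 2.39 and 2.65 in wild type. The Elektra arrays were mostly the higher ones, with wild type replicate 1 inside their range (log2 change 0.19, SE 0.10, limma adjusted p = 0.885), and without wild type replicate 3 the change was 0.12. Wipi2, the WIPI protein that recruits ATG16L1, was 4.54 ± 0.26 and 4.38 ± 0.25. Atg9b, a lipid scramblase gene with a narrower known expression than its paralogue Atg9a, measured 2.00, 2.00, 2.35 and 1.90 in Elektra and 1.53, 1.71, 1.89 and 2.07 in wild type. Its change of 0.26 (SE 0.14) was the most positive of the 41. However, the probe set was dim and the groups overlapped (limma adjusted p = 0.885). The change was 0.17 without Elektra replicate 3 and 0.35 without wild type replicate 4. Atg9a itself was 4.09 ± 0.35 in Elektra against 4.06 ± 0.29 in wild type.

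The lipid-transfer gene Atg2a was the one of the 6 with a negative value. It measured 5.41, 5.61, 5.15 and 5.34 in Elektra and 5.44, 5.62, 5.42 and 5.77 in wild type. The log2 change of Atg2a was -0.19 (SE 0.13, limma adjusted p = 0.888). It was -0.11 without Elektra replicate 3 and -0.26 without Elektra replicate 2. Its paralogue Atg2b was 5.37 ± 0.10 and 5.32 ± 0.05, with an interval of the change from -0.16 to 0.25.

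The conjugation enzymes and the ATG4 proteases went both ways, with 7 of 11 log2 changes negative (median -0.08) and 0 past the threshold. The median was -0.0278 without wild type replicate 2, -0.0077 without Elektra replicate 2, and 0.03 with Elektra replicates 2 and 3 and wild type replicate 4 left out. Atg7 encodes the E1-like enzyme at the head of both conjugation systems. It measured 5.57, 5.39, 5.51 and 5.73 in Elektra and 5.64, 5.61, 5.41 and 5.73 in wild type, so that the ranges nearly coincided. The log2 change was -0.05 with a 95% interval from -0.30 to 0.19. Atg5, which is joined to ATG12 and then carries ATG16L1, measured 5.76, 5.28, 5.41 and 4.87 in Elektra and 5.85, 5.64, 5.71 and 5.33 in wild type. In both genotypes replicate 1 was the highest array and replicate 4 the lowest. The log2 change was -0.30 (SE 0.18, limma adjusted p = 0.888). It was -0.15 without Elektra replicate 4 and -0.45 without Elektra replicate 1.

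Atg4a, a protease that trims ATG8 proteins before conjugation, measured 4.41, 4.19, 4.27 and 4.48 in Elektra and 4.57, 4.40, 4.71 and 4.61 in wild type. Elektra replicates 1 and 4 lay above wild type replicate 2, and the other Elektra arrays below all of wild type. The log2 change was -0.24 (SE 0.11, 95% interval -0.47 to 0.00), with a limma unadjusted p of 0.0511 and an adjusted p of 0.884. The authors' deposited table gave Atg4a an unadjusted p of 0.0428 and Pik3c3 one of 0.0193, the only members it put under 0.05.

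Of the other proteases, Atg4b had a negative log2 change as well, and Atg4c and Atg4d had positive ones. Atg4b was 4.73 ± 0.26 in Elektra against 4.85 ± 0.18 in wild type, Atg4c was 4.02 ± 0.43 and 3.80 ± 0.36, and Atg4d was 3.14 ± 0.34 and 2.90 ± 0.26. For Atg4c the authors' deposited table gave the 2 probe sets opposite signs, with log ratios of 0.22 and -0.10. The E2-like enzyme gene Atg3 was 4.46 ± 0.11 in Elektra against 4.58 ± 0.09 in wild type. The other E2-like gene, Atg10, was the least even member, at 3.82 ± 0.16 in Elektra and 4.10 ± 0.85 in wild type, where replicate 3 was at 2.90 and replicate 4 at 4.91. Its log2 change of -0.29 rested on single arrays. It was -0.69 without wild type replicate 3 (limma adjusted p no lower than 0.889) and -0.02 without wild type replicate 4. Atg12, the ubiquitin-like protein joined to ATG5, was 3.92 ± 0.21 and 3.88 ± 0.25. Atg16l1, which fixes the site of ATG8 attachment, was 3.46 ± 0.11 and 3.39 ± 0.30, and its paralogue Atg16l2 was 3.92 ± 0.22 and 4.00 ± 0.27.

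**Figure D2:**
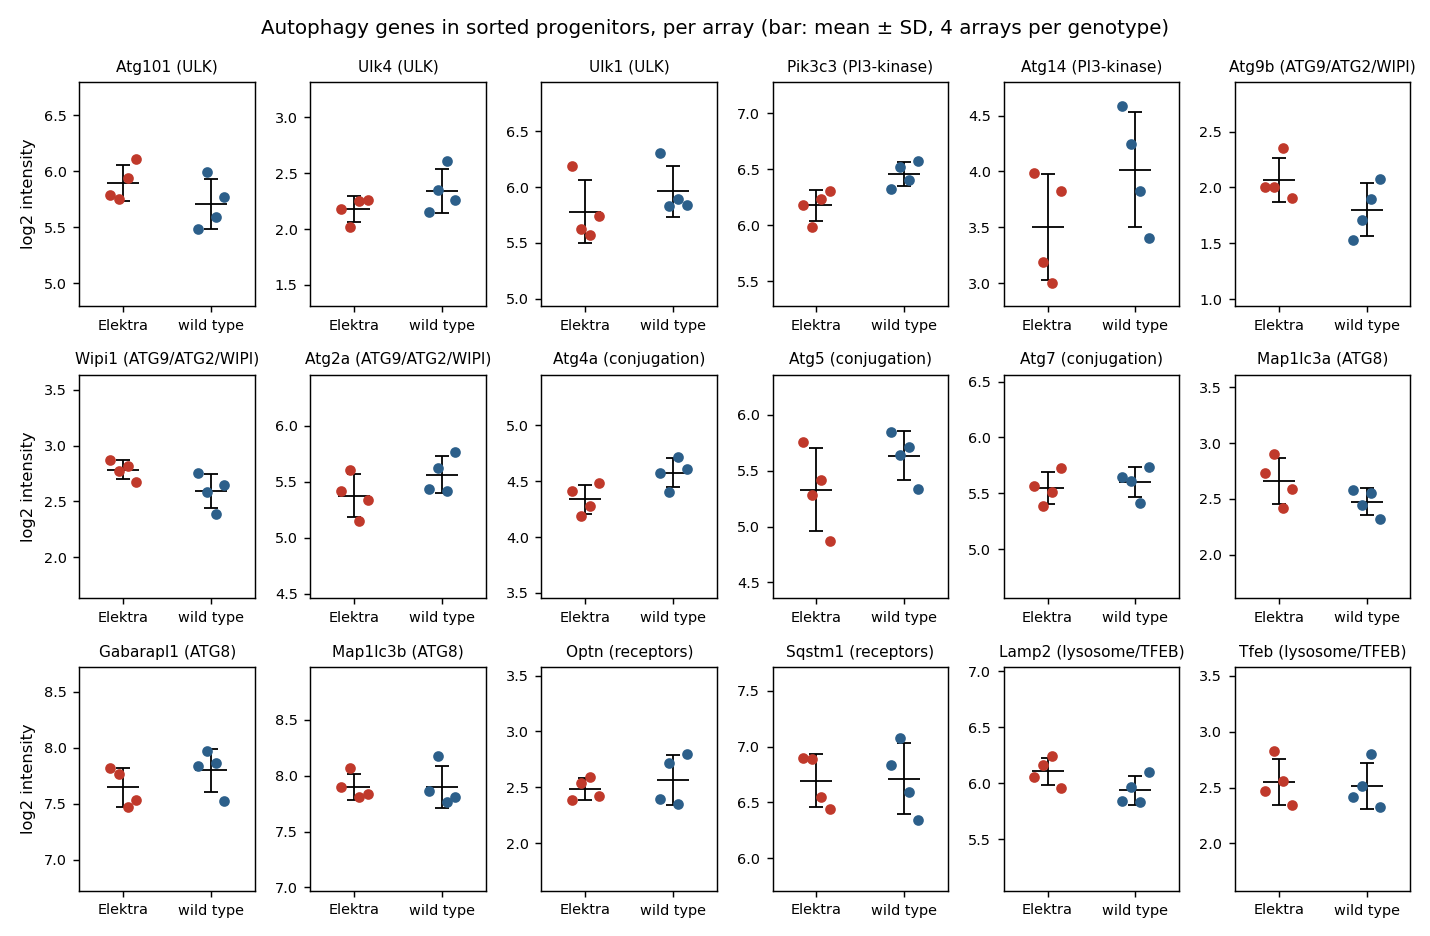
Log2 intensity per array (points; Elektra left and wild type right in each panel, replicates 1 to 4 in order within a genotype) with mean and SD (n = 4) for the 18 members described array by array. Every panel spans 2 log2 units; the ranges overlap in all panels but that of Pik3c3, where the highest Elektra array is at 6.31 and the lowest wild-type array at 6.33.

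The ATG8 family, the proteins that coat the autophagosome membrane and bind cargo receptors, was close to level between the genotypes. All 5 intervals lay inside -0.5 to 0.5, and the median log2 change was 0.00. Map1lc3b, the LC3 gene most used as a measure of autophagy, measured 7.90, 8.07, 7.81 and 7.83 in Elektra and 7.86, 8.18, 7.76 and 7.81 in wild type. Replicate 2 was the highest array in both genotypes, and the 95% interval of the change ran from -0.26 to 0.26. Gabarapl1, an ATG8 gene known as a FOXO3 target, measured 7.81, 7.77, 7.47 and 7.53 in Elektra and 7.84, 7.97, 7.86 and 7.52 in wild type. The Elektra arrays split into a high and a low pair, wild type replicate 4 lay with the low pair, and the change was -0.15 (SE 0.13, limma adjusted p = 0.898), ranging from -0.25 without wild type replicate 4 to -0.09 without Elektra replicate 3.

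Map1lc3a was dimmer, at 2.74, 2.90, 2.42 and 2.59 in Elektra and 2.58, 2.44, 2.56 and 2.32 in wild type (log2 change 0.19, SE 0.12, limma adjusted p = 0.888). Its highest value came from Elektra replicate 2, and without that array the change was 0.11. Without Elektra replicate 3 the change was 0.27. Gabarap was 6.20 ± 0.11 in Elektra against 6.17 ± 0.16 in wild type, and Gabarapl2 was 5.61 ± 0.22 and 5.61 ± 0.04.

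The cargo receptors, which link ubiquitinated cargo to ATG8 proteins, were likewise close to level, with 3 changes under 0.20 in size and all intervals inside -0.5 to 0.5. Sqstm1 encodes p62, itself an autophagy substrate and a target of the oxidative stress factor NRF2. It measured 6.90, 6.89, 6.55 and 6.44 in Elektra and 6.83, 7.08, 6.59 and 6.34 in wild type. In both genotypes replicates 1 and 2 were the high arrays and replicates 3 and 4 the low ones, and the difference between genotypes was -0.02 (SE 0.17, 95% interval -0.40 to 0.37). Optn, a receptor for mitochondria and bacteria, measured 2.38, 2.54, 2.59 and 2.43 in Elektra and 2.40, 2.72, 2.35 and 2.79 in wild type, with the Elektra range inside the wild-type one. Nbr1, a receptor for peroxisomes and aggregates, was 5.37 ± 0.32 in Elektra against 5.36 ± 0.12 in wild type.

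The lysosomal end of the pathway had small positive values for its 3 members, with 0 past the threshold. Lamp2, which encodes a lysosomal membrane protein also used in chaperone-mediated autophagy, measured 6.05, 6.16, 6.24 and 5.96 in Elektra and 5.84, 5.97, 5.83 and 6.10 in wild type. Wild type replicates 2 and 4 lay inside the Elektra range and the others below it (log2 change 0.17, SE 0.11, limma adjusted p = 0.888). Lamp1, the other main glycoprotein of that membrane, was 5.80 ± 0.20 and 5.79 ± 0.24. Tfeb, the master transcription factor of lysosome and autophagy genes, measured 2.47, 2.82, 2.56 and 2.35 in Elektra and 2.42, 2.51, 2.80 and 2.33 in wild type. The change was 0.04 with a 95% interval from -0.27 to 0.34. It was -0.06 without Elektra replicate 2 and 0.13 without wild type replicate 3.

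TFEB is known to bind an E-box within a longer palindrome, and the start regions of the members were searched for both to see whether genes with such a box moved differently. RefSeq promoter sequences of GRCm38.p6 matched 35 of the 41 members by symbol. Those of Atg12, Atg16l1, Becn1, Map1lc3a, Pik3c3 and Rb1cc1 had no match. The 250 bases before each start were searched for CACGTG and for the same box with GT before it and AC after it. Both read the same on either strand, and the longer one contains the shorter. The short box was found for 4 of 35 members (11.4%), against 6.86% of 27025 genes, and the long palindrome for 0 of 35, against 0.27%. Each line below gives the stretch around the boxes on the plus strand, 5′ to 3′ with every box in capitals, and is shown because these are the only members found to hold a box.
Lamp1, chr8:13159073-13159160: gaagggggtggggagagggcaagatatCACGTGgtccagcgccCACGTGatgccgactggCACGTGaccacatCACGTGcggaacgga
Atg3, chr16:45158708-45158790: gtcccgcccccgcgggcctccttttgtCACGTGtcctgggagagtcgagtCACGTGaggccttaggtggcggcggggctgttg
Atg7, chr6:114670937-114670996: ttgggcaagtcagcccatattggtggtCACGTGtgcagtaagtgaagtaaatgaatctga
Atg5, chr10:44268298-44268338: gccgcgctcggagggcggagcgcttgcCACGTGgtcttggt
The Lamp1 stretch held 4 boxes within the 61 bases before its start and the Atg3 stretch held 2. The log2 changes of these 4 genes lay between -0.30 (Atg5) and 0.01 (Lamp1), with a median of -0.08, and those of the 31 members without a box between -0.51 and 0.26, with a median of -0.02. A box is a match of letters and does not show binding.

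**Figure D3:**
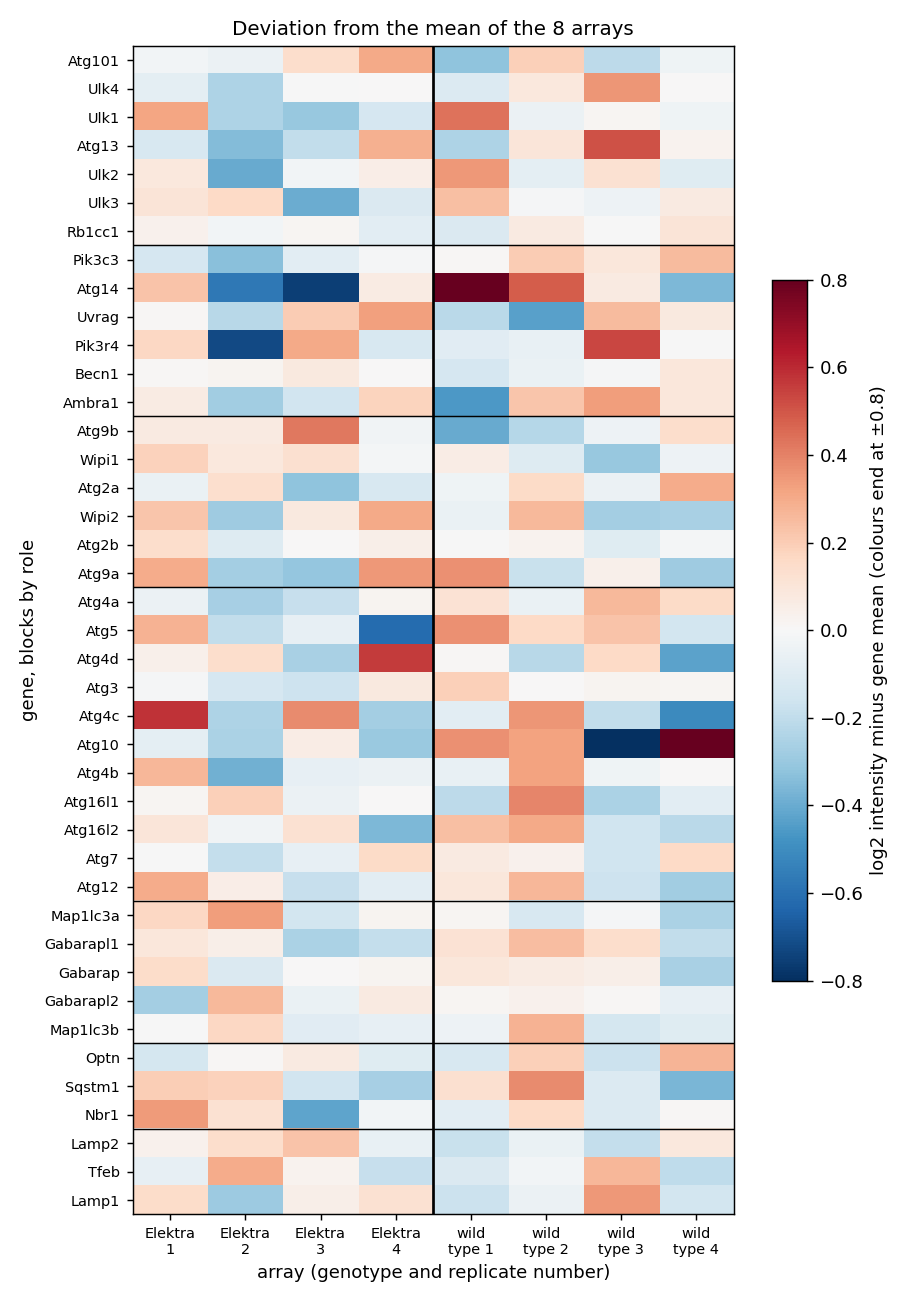
Deviation of each member's log2 intensity from its mean over the 8 arrays (colour; red above and blue below), with genes in rows by role and Elektra arrays left of wild-type arrays. Within most rows red and blue occur on both sides of the line between the genotypes, and Elektra replicate 2 holds the lowest value of 11 members.

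The members' values also varied from array to array within a genotype. Elektra replicate 2 was the lowest of the 8 arrays for 11 of 41 members, or 26.8%, and the same array was lowest for 31.7% of genes above the median level. Its median deviation from the gene means was -0.10 over the members and -0.11 over genes above the median level. Elektra replicate 3 was lowest for 8 members (19.5%, against 7.94% of genes above the median level) and highest for 2. Elektra replicate 1 was lowest for 1 member and highest for 6, with a median deviation of 0.07 where that of genes above the median level was 0.01. Wild type replicate 2 lay at the same end, lowest for 1 member and highest for 6, with a median deviation of 0.07 against 0.02. The shift of any array in the median of the members was thus at most 0.10, and arrays of both genotypes lay on either side of 0.

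Of the genes of the pathway outside the symbol rule, 0 of 81 passed the threshold in limma. At an unadjusted p under 0.05 there were 3 of the 81, against 5.5% of all genes. Negative log2 changes were seen for 46.1% of all genes and 54.3% of genes above the median level. Of 26 further autophagy genes, 7 had positive and 19 negative log2 changes (median -0.08), and 1 had an unadjusted p under 0.05. That gene was Epg5, a tether for autophagosome and lysosome fusion, at 3.34 ± 0.13 in Elektra and 3.60 ± 0.16 in wild type. The LC3-binding protein gene Calcoco1 was 5.64 ± 0.13 and 5.86 ± 0.19, and the mitochondrial receptor gene Fundc1 was 1.46 ± 0.06 and 1.66 ± 0.14. Of 29 measured lysosomal genes, 16 had positive and 13 negative changes (median 0.04). Npc2, which encodes a cholesterol-binding protein of the lysosome, was 5.48 ± 0.18 in Elektra against 5.20 ± 0.18 in wild type, with an unadjusted limma p of 0.0455 and an adjusted p of 0.884. The lysosomal proteases Ctsl (4.32 ± 0.50 and 3.77 ± 0.42) and Ctss (6.18 ± 0.25 and 5.87 ± 0.21) lay on the same side.

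Upstream regulators were divided, with 9 positive and 17 negative log2 changes of 26 (median -0.05). Deptor, an inhibitory partner of mTOR, was 4.35 ± 0.09 in Elektra against 4.06 ± 0.12 in wild type, with an unadjusted limma p of 0.0148 and an adjusted p of 0.884. Its groups were separate, as were those of 3.23% of all genes. Mtor itself was 5.03 ± 0.39 and 5.36 ± 0.19. Zkscan3, described as a repressor of autophagy genes, was 4.44 ± 0.54 in Elektra against 4.96 ± 0.50 in wild type.

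Markers of other marrow cells did not differ between the genotypes past the threshold, in any of the 7 lists looked at. The mean level of the 6 T and NK cell markers lay between 2.24 and 2.38 in Elektra and between 2.10 and 2.23 in wild type. These means did not overlap, but the nearest arrays were at 2.2363 and 2.2312. Taken singly, 0 of the 6 genes had separate groups, against 3.23% of all genes. The brightest, Nkg7, was 6.46 ± 0.20 in Elektra and 6.11 ± 0.32 in wild type. Of the 6 changes 4 were positive and 2 negative, and 4 of the 6 genes were below the median value in every array. The 10 erythroid markers lay between 3.52 and 4.34 in Elektra and between 3.69 and 4.12 in wild type, and the 8 neutrophil markers between 2.21 and 3.42 and between 2.07 and 3.90. The part of these levels in the members' values was not tested.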

How the data were processed

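RNA (100 to 200 pg per sample, amplified with 12 cycles of PCR, per the labels' protocols) was hybridised to Affymetrix arrays. Per the submitters' processing notes, the authors obtained the deposited log2 intensities by RMA, using Affymetrix Expression Console 1.4. The deposited p-values and signed fold score were computed by the authors. Those p-values equalled a pooled-variance test on the deposited log2 values to within 2.88e-12. The genome build and scan batches are not given in the sources used here. The annotated table (34390 probe sets) was the main input because it carries the symbols; the series table (41345 probe sets) was an alternative, and the median difference between the 2 tables was 0.0607 on the log2 scale. A single symbol was given for 31872 annotated probe sets, several for 1 and no symbol for 2517. Each gene was read from its brightest probe set by the mean of the 8 arrays, with no filter on dim genes. Elektra was tested against wild type with limma 3.58.1 (lmFit, eBayes; R 4.3.3) in a two-sided test at an adjusted p of 0.05 over all genes. The procedure was tested on simulated data.

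The members and lists were chosen with earlier results of these data known. Array-by-array values are given for the 2 members with the smallest p and the brightest member of each of 7 roles, and for any member with separate groups. Up to 3 genes with the smallest p are named per list outside the rule. Wdr45, Wdr45b, Vmp1 and Tmem41b are named in addition, beside the lipid supply members, and were not picked by p. Alternatives were quantile normalization, median centring, leaving out genes under the 40th percentile of level, averaging the probe sets of a gene, testing every annotated probe set, the series table, an intensity trend with robust prior, array weights, the pooled-variance test, the replicate number as a block, leaving out each array or 3 arrays, and an adjusted p of 0.10.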

Additional observations from a re-analysis of the deposited data

Results flagged for a closer look

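Among the 82 groups of 4 arrays (41 members in 2 genotypes), 5 held an array set far from the other 3 of its group, where chance alone would give about 4.1. All 5 were wild-type arrays. Atg3 was 4.71 in wild type replicate 1 against 4.52 to 4.54 in the other wild-type arrays. Ulk1 was 6.30 in the same array against 5.83 to 5.89. Atg4b was 5.11 in wild type replicate 2 against 4.73 to 4.79. Pik3r4 was 4.67 in wild type replicate 3 against 4.04 to 4.14. Gabarap was 5.93 in wild type replicate 4 against 6.23 to 6.27.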

How the results depend on the processing

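No member passed an adjusted p of 0.05 in any of the 19 alternative fits, where the lowest adjusted p was 0.704, or an adjusted p of 0.10 in the reported fit, and 0 of all genes passed in each of these. The number of members at an unadjusted p under 0.05, reported as 1, was 2 with median centring, the series table, the pooled-variance test and the replicate block, and 0 with Elektra replicates 2 and 3 and wild type replicate 4 left out, of which only Elektra replicate 2 stood apart in these values. With single arrays left out, its lowest value was 0 (without Elektra replicate 2, against 5.08% of all genes). Its highest was 4 (Atg14, Atg5, Pik3c3 and Ulk1, without Elektra replicate 1), against 6.84% of all genes in that fit. It was 2 without Elektra replicate 4 (Atg4a and Pik3c3), wild type replicate 3 (Atg10 and Pik3c3) or wild type replicate 4 (Atg14 and Atg9b). Over the 19 alternative fits, between 4.56% and 6.84% of all genes had an unadjusted p under 0.05, where the reported fit had 5.5%. The members' median log2 change lay between -0.06 and 0.03 over all alternatives, and between -0.06 and -0.0014 on leaving out single arrays. The split of 22 negative and 19 positive members was 18 and 23 with quantile normalization, and 28 and 13 with median centring. Of all 41 members, 26 kept their sign in every alternative. Of the 18 described array by array, 4 did not. With quantile normalization, Atg7 (0.0163), Map1lc3b (0.0185) and Sqstm1 (0.0259) turned positive. Tfeb turned negative with median centring (-0.0047), with array weights (-0.0182) and with those 3 arrays left out (-0.17), where Atg7 was 0.0916. Map1lc3b was 0.0047 with the series table. On leaving out single arrays, Atg7 ranged from -0.12 to 0.0012, Map1lc3b from -0.0558 to 0.0913, Sqstm1 from -0.14 to 0.11 and Tfeb from -0.0564 to 0.13. The cause was not tested. By role, the ULK genes were negative for 6 of 7 as reported and for 5 with quantile normalization, the lysosomal members positive for 3 of 3 as reported and for 1 with median centring, and the PI3-kinase genes negative for 4 of 6 as reported and for 3 without Elektra replicate 2. The labels do not tie the replicate numbers to litters or days. Deviations of same-numbered arrays correlated at 0.04 to 0.19, over 0.1 for 2 of 4 pairs, and 4 of 8 arrays correlated best with their own number. These correlations do not settle whether same-numbered samples were paired. With the replicate block 0 genes were called, and Atg5 joined Pik3c3 at an unadjusted p under 0.05, against 6.08% of all genes. The number of arrays and, for dim members such as Atg9b, a weak signal limit what can be seen.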
